A study of Mus musculus with 27 samples.

Results

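The vesicular glutamate transporters Slc17a6, Slc17a7 and Slc17a8 were followed in RNA sequencing of mouse frontal cortex and striatum. They were chosen as the 3 genes of the class by name, through the Ensembl identifiers of the count tables, and make up 3 of 52636 identifiers. The study compared 129S1 mice that were wild-type or homozygous for a deletion (Igf2enh-/-), which removes a 4.9 kb intergenic fragment between H19 and Igf2. The allele was made by targeting in embryonic stem cells, and mice of both genotypes were about 2.5 months old. A loxP site was left in place of the fragment after a cross to Hprt-CRE mice, so the deletion is present throughout the body. Frontal cortex came from 6 wild-type mice and 6 Igf2enh-/- mice, 3 of each sex in both groups. The striatal libraries numbered 7 for the wild-type, of 3 females and 4 males, and 8 for Igf2enh-/-, of 4 females and 4 males. Each library was made from about 25 mg of whole tissue, with 500 ng of ribosome-depleted total RNA read as single 75-base reads. The labels give each of the 27 libraries a number, used here as its name, and do not tie a cortical library to a striatal one of the same mouse.

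Vesicular glutamate transporters load glutamate into synaptic vesicles, driven by the gradient of a proton pump, and a neuron that releases glutamate carries at least one of them. VGLUT1 (Slc17a7) is the transporter of most projection neurons of the neocortex and hippocampus, and VGLUT2 (Slc17a6) that of the thalamus, hypothalamus and many brainstem neurons. VGLUT3 (Slc17a8) is found in neurons better known for another transmitter, which include cholinergic interneurons of the striatum, serotonergic neurons and cortical basket cells that express cholecystokinin. The medium spiny neurons that make up most of the striatum release GABA, and the glutamatergic terminals around them have their cell bodies in cortex and thalamus. The comparisons addressed how much cortical tissue the striatal pieces held, by way of Slc17a7, and whether minor glutamatergic populations differed between regions or genotypes.

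On GRCm38.p6, Slc17a7 (ENSMUSG00000070570) lies on chromosome 7 at 45163921 to 45176139, and Slc17a6 (ENSMUSG00000030500) on the same chromosome at 51621830 to 51671126. Slc17a8 (ENSMUSG00000019935) lies on chromosome 10 at 89574020 to 89621249. Coding reads of the 3 genes can be told apart, as shown by the stretch of 75 coding bases, the length of a read, in which the 3 together differ least. It lies in exon 2 of 12 of each gene, in the GENCODE vM1 transcripts Slc17a6-201 (coding bases 208 to 282), Slc17a7-201 (184 to 258) and Slc17a8-001 (262 to 336). It is given 5′ to 3′ on the coding strand, with capitals at the 18 positions where the 3 genes are not all the same.
Slc17a6: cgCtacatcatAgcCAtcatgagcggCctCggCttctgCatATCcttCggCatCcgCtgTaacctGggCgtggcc
Slc17a7: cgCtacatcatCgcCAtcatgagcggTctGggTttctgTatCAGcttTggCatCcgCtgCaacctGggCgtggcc
Slc17a8: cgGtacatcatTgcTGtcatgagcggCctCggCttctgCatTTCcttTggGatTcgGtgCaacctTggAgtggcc
In it Slc17a6 and Slc17a7 differed at 10 bases, Slc17a6 and Slc17a8 at 12, and Slc17a7 and Slc17a8 at 16. Taken as pairs, the genes came closest in other stretches of this length, with 9, 10 and 9 differences in the same order. No 75-base run was shared between any pair (0 of each), so a read from the coding sequence of one gene does not match another without mismatches.

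Total counts ran from 23686945 to 33926904 per library, and levels are given as CPM, counts scaled to the size of the library, with the trimmed mean of M-values (TMM) as the scaling factor. The region labels were checked on 18 genes of medium spiny neurons, such as Pde10a, Ppp1r1b and Adcy5. Their summed level was 555 to 611 CPM in frontal cortex and 6286 to 16656 CPM in striatum, where library 20 was lowest. The genotype labels were not checked on gene counts here. The deleted fragment lies between genes, and Igf2, which the study reports as higher in Igf2enh-/- mice in both regions, was not examined. Striatal library 15 held 4587 CPM of 9 choroid plexus genes where the rest of the striatum had 171 to 368 CPM, and library 20 held the most oligodendrocyte transcripts (10577 CPM over 8 genes, 4844 to 9240 CPM in the others). RNA integrity numbers were 9.4 to 10 in frontal cortex and 8.6 to 9.7 in striatum.

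Slc17a7 was the most abundant of the 3 transporters in frontal cortex and hardly varied there. In wild-type cortex its lowest, median and highest levels were 1508, 1563 and 1659 CPM, with a mean of 1571 ± 50.0 CPM (SD, n = 6). In Igf2enh-/- cortex they were 1482, 1571 and 1681 CPM, with a mean of 1578 ± 66.7 CPM (SD, n = 6). The ranges of the genotypes overlapped over most of their length, and the highest of the 12 libraries was 1.13-fold the lowest.

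In striatum Slc17a7 was lower in every library and varied over a wide range. In wild-type striatum it ran from 13.6 to 750 CPM with a median of 283 CPM (mean 312 ± 291 CPM, SD, n = 7). In Igf2enh-/- striatum it ran from 98.1 to 559 CPM with a median of 187 CPM (mean 251 ± 150 CPM, SD, n = 8), within the wild-type range. The highest striatal library had 55.0 times the Slc17a7 of the lowest, and all 15 lay below all 12 cortical libraries. The standard deviation of log2 CPM was 1.69 in striatum, rank 3 of 13875 genes from the highest, where the median gene had 0.135. In frontal cortex it was 0.051, and 8.53% of genes varied less.

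Slc17a6 was low in both regions, and in striatum it again varied between libraries. Its lowest, median and highest levels were 14.2, 16.7 and 19.5 CPM in wild-type cortex (mean 16.8 ± 2.30 CPM, SD, n = 6). The same values in Igf2enh-/- cortex were 12.8, 16.0 and 18.2 CPM (mean 15.7 ± 2.15 CPM, SD, n = 6), overlapping those of wild-type. In striatum it ran from 0.684 to 14.1 CPM in wild-type mice, with a median of 3.99 CPM (mean 6.50 ± 5.66 CPM, SD, n = 7). In Igf2enh-/- striatum it ran from 2.95 to 20.5 CPM, with a median of 4.45 CPM (mean 7.72 ± 6.35 CPM, SD, n = 8). Of the 15 striatal libraries 12 lay below all of cortex, 2 lay within its range, and library 19 (Igf2enh-/-) lay above it. Library 22 (wild-type), with 20 counts, was the 1 striatal library under 1 CPM.

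Slc17a8 had the opposite pattern, low in cortex and higher in striatum. In cortex its lowest, median and highest levels were 4.00, 4.36 and 5.52 CPM in wild-type mice (mean 4.52 ± 0.606 CPM, SD, n = 6). In Igf2enh-/- cortex they were 4.30, 4.99 and 5.90 CPM (mean 5.03 ± 0.667 CPM, SD, n = 6). In striatum it ran from 13.1 to 35.3 CPM in wild-type mice, with a median of 22.2 CPM (mean 23.7 ± 6.76 CPM, SD, n = 7). It ran from 17.2 to 28.3 CPM in Igf2enh-/- striatum, with a median of 23.7 CPM (mean 23.3 ± 4.15 CPM, SD, n = 8). All 15 striatal libraries lay above all 12 of cortex, and in both regions the genotypes overlapped.

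**Figure D1:**
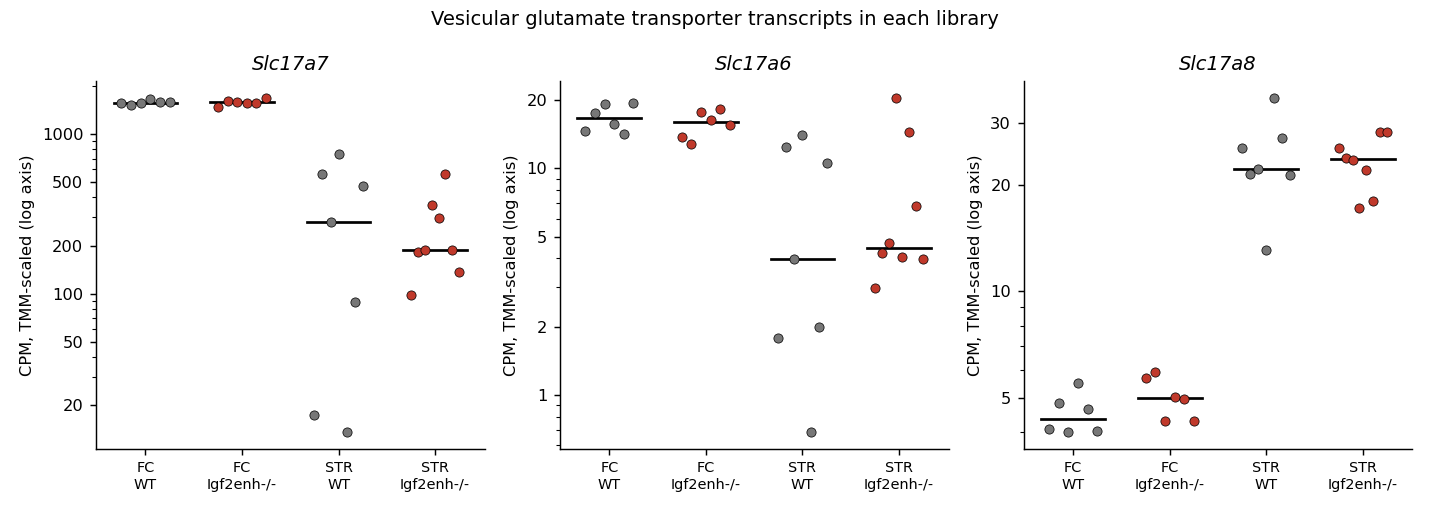
Level of each transporter in every library, in TMM-scaled CPM on a log axis, with a point for each library by region (FC for frontal cortex, STR for striatum) and genotype (WT, wild-type) and a black bar at the group median. Slc17a7 lies between 1482 and 1681 CPM in cortex and spreads from 13.6 to 750 CPM in striatum, Slc17a6 spreads from 0.684 to 20.5 CPM in striatum, and Slc17a8 is higher in all 15 striatal libraries than in any of cortex.

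To compare the genes with each other, levels were divided by the exon length of each gene, as CPM per kilobase. In cortex the means were 536 for Slc17a7, 3.77 for Slc17a6 and 1.01 for Slc17a8, and this order held in 12 of 12 libraries. In striatum the mean levels were 95.2 CPM per kilobase for Slc17a7, 4.98 for Slc17a8 and 1.66 for Slc17a6. Slc17a8 exceeded Slc17a6 in 13 of 15 striatal libraries, with libraries 19 and 20 the other way. Slc17a7 exceeded Slc17a8 in 14 of 15, and in library 22 Slc17a8 was higher (7.48 against 4.64 CPM per kilobase).

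The regions were compared with edgeR's quasi-likelihood test, with genotype and sex in the model and Benjamini-Hochberg adjustment. All 3 members were called at an adjusted p under 0.05, in a comparison that called 77.5% of 13414 genes (39.4% higher and 38.2% lower in striatum). Slc17a6 fell under the filter of at least 1 CPM in every library and was tested in a fit of all 36013 genes with a count, of which 41.3% were called (21.5% higher and 19.8% lower). Between regions the difference in Slc17a7 was -2.54 (log2 scale, striatum over cortex, SE 0.407, 95% interval -3.39 to -1.70, adjusted p = 3.47e-06). That in Slc17a6 was -1.24 (SE 0.296, interval -1.86 to -0.63, adjusted p = 0.000745). The difference in Slc17a8 was 2.30 (SE 0.119, interval 2.06 to 2.55, adjusted p = 6.44e-15), higher in 15 of 15 striatal libraries. With more than 3 in 4 genes called, passing this test is not particular to the transporters, but the differences were large. The size of the change was smaller in 99.3% of genes than for Slc17a7 and in 99.0% than for Slc17a8, and in the wider fit it was smaller in 86.1% than for Slc17a6. The fit gives both regions 1 estimate of the spread of a gene, but the SD of log2 CPM of Slc17a7 was 0.051 in cortex and 1.69 in striatum. Its mean log2 CPM was 10.62 in cortex of either genotype, and 7.17 in wild-type and 7.77 in Igf2enh-/- striatum. In tissue homogenates, fewer cells of a type and less RNA per cell cannot be told apart.

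The transporters were also set beside 37 genes of glutamate handling, of which 28 passed the filter. Of these, 3 were higher in striatum, 20 were lower and 5 were not called. Over all 13414 genes tested, 39.4% were called higher and 38.2% lower. The median difference was -0.34 on the log2 scale, against 0.0088 over all genes tested. Among 9 genes of the vesicular proton pump and chloride transport, which set up the gradient that the transporters use, 8 were lower. The pump subunit Atp6v1a differed by -0.85 (SE 0.0450). Of 6 genes of glutamate synthesis and breakdown 5 were lower, with the glutaminase Gls2 at -0.82 (SE 0.0916). Of 7 genes of amino acid transport at the plasma membrane 2 were higher and 4 lower. The neuronal transporter Slc1a6 had the largest difference downward of the 28 (-1.35, SE 0.127), and Slc1a5 (0.45, SE 0.0792) and Slc1a1 (0.20, SE 0.0406) were higher. Of 4 glutamine transporters 2 were lower. Slc17a5, the lysosomal sialic acid transporter and the 1 of 6 other Slc17 genes that passed the filter, was lower (-0.65). Slc32a1, which loads GABA and glycine into vesicles, was the 1 other vesicular transporter tested and was higher (1.56, SE 0.0687), rising from 88.2 to 260 CPM.

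No effect of genotype on any of the transporters was called in either region. In frontal cortex edgeR called 0 of the 3 members (0 also at an unadjusted p under 0.05), beside 0.38% of 13936 genes. The Igf2enh-/- over wild-type difference in cortex was 0.0050 for Slc17a7 (log2 scale, SE 0.0335, 95% interval -0.071 to 0.081, adjusted p = 0.969 by edgeR). It was -0.095 for Slc17a6 (SE 0.101, interval -0.32 to 0.13, adjusted p = 0.726) and 0.15 for Slc17a8 (SE 0.110, interval -0.097 to 0.40, adjusted p = 0.580). In striatum edgeR likewise called 0 of 3 (0 unadjusted), beside 0.036% of 13875 genes for Slc17a7 and Slc17a8 and 0.0293% of 34126 in the wider fit for Slc17a6. DESeq2 and edgeR's likelihood ratio test called none of the 3 in either region (0 in all 60 other settings in cortex and all 78 in striatum).

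The intervals in striatum were wide for 2 of the genes. The difference in Slc17a7 was -0.36 (log2 scale, SE 0.677, interval -1.83 to 1.12, adjusted p = 0.913 by edgeR). That in Slc17a6 was 0.21 (SE 0.517, interval -0.92 to 1.33, adjusted p = 0.938). For Slc17a8 it was -0.037 (SE 0.170, interval -0.41 to 0.33, adjusted p = 0.963). The sign for Slc17a7 depended on the scale, since the mean CPM was higher in wild-type striatum and the mean log2 CPM was higher in Igf2enh-/- (7.77 against 7.17). The exact permutation test of mean log2 CPM gave a difference of 0.60 (p = 0.499, two-sided), and 0.46 for Slc17a6 (p = 0.459) and 0.0052 for Slc17a8 (p = 0.981). In cortex the exact permutation p was 0.827 for Slc17a7, 0.439 for Slc17a6 and 0.190 for Slc17a8, and over the 6 tests the adjusted values were 0.749 to 0.981. The smallest exact p was 0.00216 in cortex and 0.000155 in striatum. Leaving out wild-type library 16 turned the Slc17a7 difference to 0.070, and leaving out Igf2enh-/- library 19 turned that of Slc17a6 to -0.094.

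The study's record of trimming is kept in 2 formats, with few decimals for libraries 13 to 20 and many for 21 to 27. Between genotypes, the mean log2 level of Slc17a7 differed by -0.20 in the first set (4 wild-type and 4 Igf2enh-/-) and by 1.60 in the second (3 wild-type and 4 Igf2enh-/-). The values were -0.029 and 1.11 for Slc17a6, and 0.15 and -0.20 for Slc17a8. The second set holds wild-type library 22, the lowest of striatum in Slc17a7 and Slc17a6. Its log2 level of Slc17a7 was 3.82, where wild-type libraries 24 and 26 of that set had 6.48 and 8.88. For Slc17a6 the levels were 0.243, 1.32 and 3.47 in the same order. The differences within the sets were not tested. Whether the genotype difference depended on region was tested as an interaction, which was -0.35 for Slc17a7 (SE 0.786), 0.35 for Slc17a6 (SE 0.590) and -0.19 for Slc17a8 (SE 0.233). None was called, and edgeR called 0 of 13414 genes (percent called 0), with 405 at an unadjusted p under 0.05 and 0 called by its likelihood ratio test. Sex gave no call either, with 0.0431% of genes called in cortex, and 0.0432% in striatum or 0.041% in the wider fit. The largest difference by sex was in striatal Slc17a6, 0.72 higher in males (log2 scale, SE 0.521, adjusted p = 0.689 by edgeR). Of the genes of glutamate handling 0 of 28 were called for genotype in either region, with a lowest adjusted p of 0.388 in cortex and 0.0834 in striatum by edgeR. Over all genes tested, the share called for genotype was 0.38% of 13936 in cortex and 0.036% of 13875 in striatum.

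**Figure D2:**
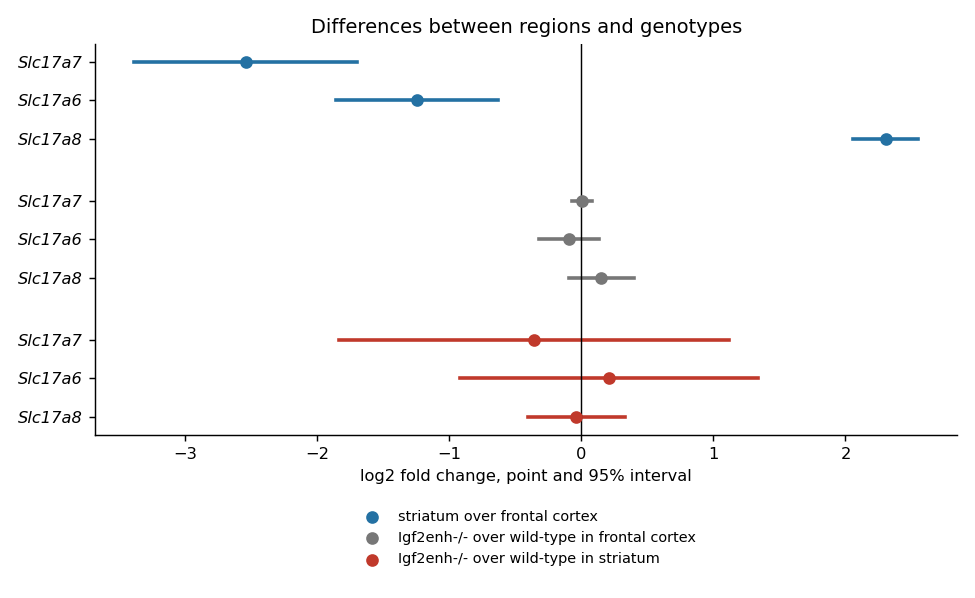
Log2 fold change of each transporter with its 95% interval, for striatum over frontal cortex and for Igf2enh-/- over wild-type in each region, from edgeR's quasi-likelihood fit. The intervals between regions exclude 0 for all 3 genes, and those between genotypes include it, from -0.071 to 0.081 for Slc17a7 in cortex and from -1.83 to 1.12 in striatum.

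Each striatal library was then placed on a scale where the mean of the 12 cortical libraries is 100%. Slc17a7 in striatum was 0.866% of cortex in library 22 and 1.11% in library 14, both wild-type. It was 5.65% to 18.8% in the 8 libraries next in order and 22.9%, 30.0%, 35.5%, 35.7% and 47.6% in libraries 19, 26, 23, 16 and 20. The median was 11.9%, and the 3 lowest and the 2 highest libraries were all wild-type. The cortical share that Slc17a7 gives would be that of a piece with no Slc17a7 of its own, which was not tested.

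Slc17a7 was read against 15 genes of cortical projection neurons that are not transporters. The 10 genes of the list that passed the filter of the region comparison were all called lower in striatum, beside 38.2% of 13414 genes. Their median difference was -2.17 on the log2 scale, and the other 5 genes were not tested there. Over the 15 genes the median was 1.28% of the cortical level in library 22, 2.09% in library 14 and 54.2% in library 20. In each of libraries 22 and 14, 8 of the 15 genes were under 3% of their cortical level. Single genes ran from 0.508% to 45.3% in library 22 and from 30.4% to 112% in library 20. Over the 10 genes at 1 CPM or more in every striatal library the median was higher, at 10.7% in library 22 and 60.8% in library 20. Tbr1, a transcription factor of deep-layer projection neurons, moved with Slc17a7 almost exactly (r = 0.998 over 15 libraries), and Rorb, a factor of layer 4, was the least alike of the list (r = 0.501). The genes of highest level in the list were Nrn1, Mpped1, Rasgrf2 and Cux2, with 316, 285, 250 and 190 CPM in cortex.

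Across the 15 striatal libraries Slc17a7 rose with the mean log2 level of the 10 cortical genes at 1 CPM or more throughout (r = 0.969, rho = 0.996, permutation p = 1e-05 for both, the smallest that 100000 resamples give). The Benjamini-Hochberg adjusted p over the 9 relations computed was 3e-05 for each by permutation. Without the 2 libraries farthest from the median r was 0.967, and it was 0.983 in wild-type, 0.992 in Igf2enh-/-, 0.962 in libraries 13 to 20 and 0.976 in 21 to 27. With all 15 genes of the list r was 0.964. Slc17a7 fell as the medium spiny neuron list rose (r = -0.735, rho = -0.932, permutation p = 0.00344 and 1e-05, adjusted 0.00619 and 3e-05). Without the 2 farthest libraries r was -0.771. It was -0.777 in wild-type, -0.926 in Igf2enh-/-, -0.722 in libraries 13 to 20 and -0.813 in 21 to 27. Levels in a library are shares of 1 total, so a rise in some transcripts lowers the others.

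**Figure D3:**
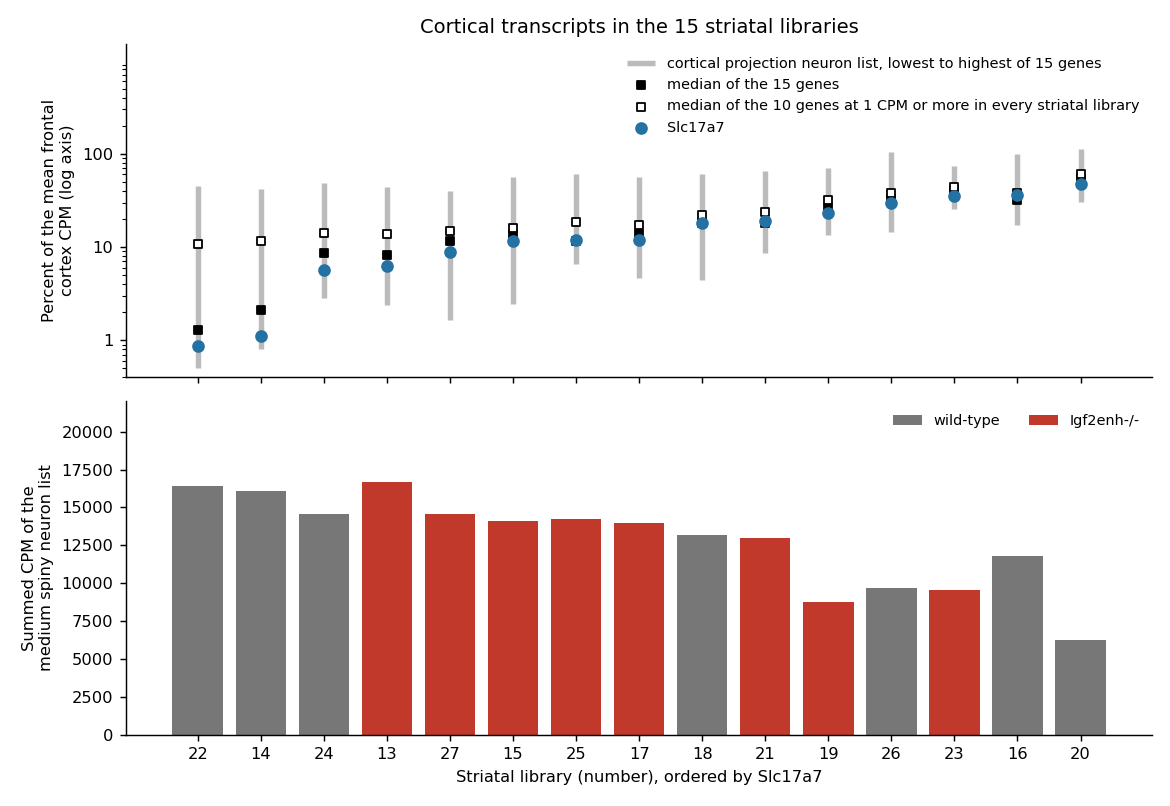
The 15 striatal libraries in order of Slc17a7, with Slc17a7 (blue points) and the cortical projection neuron list (black squares for the median of 15 genes, open squares for that of the 10 genes at 1 CPM or more in every striatal library, grey bars from the lowest to the highest of the 15) as percent of mean cortical CPM on a log axis, above the summed CPM of the medium spiny neuron list (grey bars wild-type, red bars Igf2enh-/-). Slc17a7 climbs from 0.866% to 47.6% as the median of the 15 genes climbs from 1.28% to 54.2% and that of the 10 from 10.7% to 60.8%, and the medium spiny neuron sum is lowest, at 6286 CPM, in the library with the most Slc17a7.

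Slc17a6 in striatum followed Slc17a7 in most libraries but not in a fixed ratio. In cortex there were 0.791 to 1.23 counts of Slc17a6 for every 100 of Slc17a7. In striatum the ratio was 1.37 to 10.1, so that all 15 libraries lay above all of cortex. It was highest in library 14 (10.1), library 19 (5.68) and library 22 (5.01), and the median was 2.49. Libraries 14 and 22 are those with the least Slc17a7, and library 19 had the most Slc17a6. As a share of cortex, striatal Slc17a6 ran from 4.20% in library 22 to 126% in library 19, with a median of 25.9%.

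Slc17a6 rose with the cortical list (r = 0.915, rho = 0.904, permutation p = 1e-05 for both, adjusted 3e-05). Without the 2 farthest libraries r was 0.878. It was 0.974 in wild-type, 0.829 in Igf2enh-/-, 0.882 in libraries 13 to 20 and 0.950 in 21 to 27. The relation with 12 thalamic genes, 9 of them at 1 CPM or more throughout, was weaker (r = 0.591, rho = 0.557, permutation p = 0.0196 and 0.0333, adjusted 0.0252 and 0.0375). It rested on libraries 19 and 26, since r without them was 0.359 (adjusted permutation p = 0.257), and without library 19 alone it was 0.441 (adjusted permutation p = 0.130). With all 12 genes of the list it did not pass (r = 0.488, adjusted permutation p = 0.0753). It was 0.440 in wild-type, 0.793 in Igf2enh-/-, 0.551 in libraries 13 to 20 and 0.630 in 21 to 27. The genes of the thalamic list went separate ways, from r = -0.78 for Synpo2, the most abundant, to r = 0.953 for Ntng1, an axon guidance protein. Plekhg1 and Prkcd completed the 4 genes of highest level.

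Library 19, with 20.5 CPM of Slc17a6, also had the highest sum of the thalamic list (159 CPM, 105 to 146 CPM in the others) and of 5 septal genes led by Zic1, Trpc4, Zic2 and Zic4 (205 CPM). Library 26, with 10.6 CPM of Slc17a6, had the next highest septal sum at 154 CPM, and the median of the 15 was 40.0 CPM. All 5 septal genes were at 1 CPM or more in every striatal library. A list of 7 claustral and insular genes ran from 242 to 590 CPM in striatum and from 194 to 279 CPM in cortex. In striatum library 20 was lowest and library 16 highest. Of the 6 genes of this list tested between regions 5 were called higher in striatum, beside 39.4% of 13414 genes. Whether they mark claustral tissue in these pieces was not tested. The part of these tissues in the Slc17a6 levels was not tested. In cortex Slc17a6 had no detectable relation to the thalamic list (r = -0.098, rho = 0.035, permutation p = 0.772 and 0.921, n = 12). There r was 0.288 without the 2 farthest libraries, 0.113 in wild-type and -0.026 in Igf2enh-/-.

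Slc17a8 moved with cholinergic genes in striatum and against Slc17a7. The cholinergic list held 8 genes, of which 6 were matched and all were at 1 CPM or more in every striatal library. The genes of highest level were Slc5a7, which takes up choline, Ecel1, Chat, which makes acetylcholine, and Isl1, with means of 45.1, 37.5, 20.1 and 18.0 CPM in striatum. The summed level was 67.4 CPM in library 20, lowest also in Slc17a8, to 202 CPM in library 22, highest also in Slc17a8. In cortex the sum was 2.53 to 9.15 CPM, highest in Igf2enh-/- library 1. That library also had the highest septal (86.0 CPM) and thalamic (102 CPM) sums of cortex and the lowest oligodendrocyte sum (985 CPM). In striatum Slc17a8 rose with the cholinergic list (r = 0.900, rho = 0.846, permutation p = 1e-05 and 0.00019, adjusted 3e-05 and 0.000342). Without the 2 farthest libraries r was 0.827. It was 0.963 in wild-type, 0.756 in Igf2enh-/-, 0.909 in libraries 13 to 20 and 0.980 in 21 to 27. By gene, r ran from 0.667 for Ecel1 to 0.949 for Slc5a7. The 5 genes most like Slc17a8 in striatum, with r of 0.954 to 0.961, are not on this list. Slc17a8 was not set against the medium spiny neuron list, whose sum was also lowest in library 20 (6286 CPM) and highest in library 13 (16656 CPM). Whether the relation is particular to cholinergic genes was not tested. The ratio of Slc17a8 to Chat counts was steady, at 1.01 in library 19 to 1.44 in library 26 with a median of 1.17.

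Slc17a8 fell as the cortical list rose (r = -0.869, rho = -0.896, permutation p = 3e-05 for both, adjusted 6.75e-05). Without the 2 farthest libraries r was -0.767. It was -0.880 in wild-type, -0.870 in Igf2enh-/-, -0.845 in libraries 13 to 20 and -0.960 in 21 to 27. Serotonergic genes, the marker of another class of VGLUT3 neurons, were near 0, with a sum over 3 genes of 0.331 to 1.62 CPM in striatum and 0.479 to 1.36 CPM in cortex. The sum of astrocyte transcripts, over 5 genes, differed little, from 828 to 1138 CPM in striatum and 848 to 1092 CPM in cortex. By gene, 1 was called higher in striatum, 2 lower and 2 neither, beside 39.4% higher and 38.2% lower of all genes tested.

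**Figure D4:**
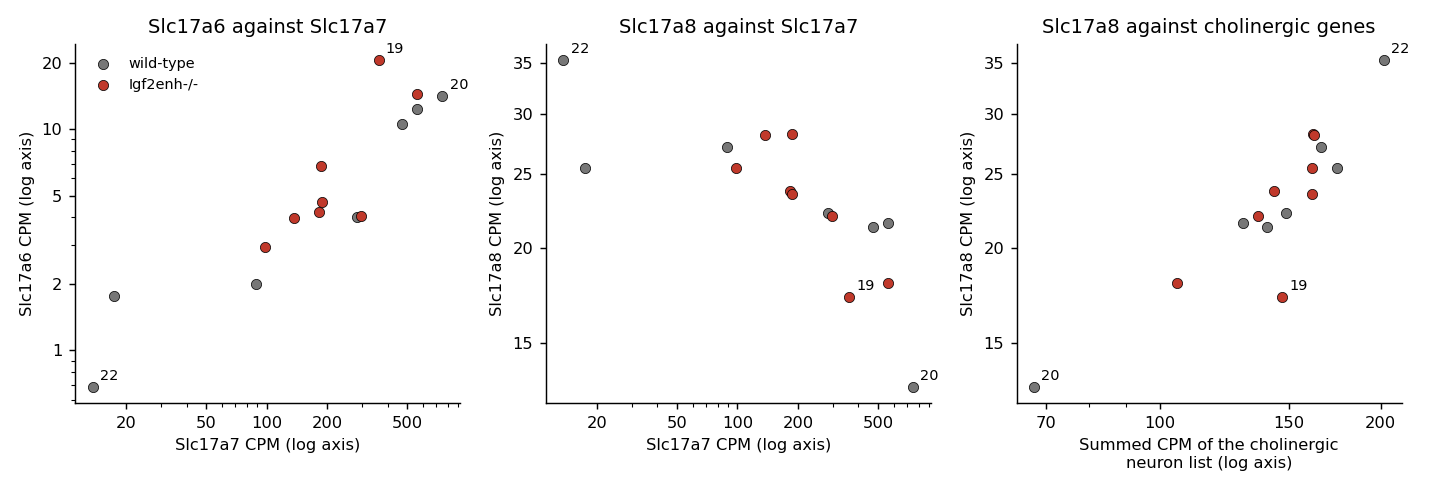
Slc17a6 and Slc17a8 against Slc17a7, and Slc17a8 against the summed cholinergic list, in TMM-scaled CPM on log axes with 1 point for each of the 15 striatal libraries by genotype. Slc17a6 climbs with Slc17a7 with library 19 above the others at 20.5 CPM, Slc17a8 falls from 35.3 CPM in library 22 to 13.1 CPM in library 20 as Slc17a7 rises, and it climbs with the cholinergic sum from 67.4 to 202 CPM.

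In cortex the levels of Slc17a8 were read against a list made for cholecystokinin basket cells. Slc17a8 had only 104 to 153 counts in each cortical library, and the part of counting noise in its spread was not tested. Cck itself was also among the genes most like Slc17a7 across striatal libraries (r = 0.988). Which cells carried the transcripts of this list was not tested. Of 5 genes in the list 3 were at 1 CPM or more in every cortical library, which were Cck, the cannabinoid receptor Cnr1 and Tnfaip8l3 (means of 284, 257 and 8.50 CPM). Slc17a8 rose with their mean log2 level (r = 0.677, rho = 0.769, permutation p = 0.0122 adjusted for r), and r was 0.855 without the 2 farthest libraries. Within genotypes it was 0.296 in wild-type and 0.781 in Igf2enh-/- (n = 6 each, adjusted exact permutation p = 0.630 and 0.0643). The relation of Slc17a7 to the cortical list in cortex did not pass on r (r = 0.554, adjusted permutation p = 0.0709, n = 12) and did on rank (rho = 0.650, adjusted permutation p = 0.0332). It was 0.444 without the 2 farthest libraries, 0.637 in wild-type and 0.571 in Igf2enh-/-, and without library 11 it passed (r = 0.675, adjusted permutation p = 0.0221).

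Between the transporters themselves, correlations in log2 CPM over the 15 striatal libraries were 0.888 for Slc17a6 with Slc17a7, -0.816 for Slc17a6 with Slc17a8 and -0.776 for Slc17a7 with Slc17a8. Over the 12 cortical libraries they were -0.071, -0.599 and -0.058. These values are descriptions over libraries that share depth and scaling. Among the genes at 1 CPM or more in every striatal library, those most like Slc17a7 across striatal libraries were Tbr1 (r = 0.998), Neurod2 (0.991), Cck (0.988), Cadps2 (0.987) and Nrn1 (0.981). Those most like Slc17a6 were Nwd2 (r = 0.965), Snap91 (0.960), Tmem200a (0.954), Ntng1 (0.953) and Sobp (0.952). For Slc17a8 they were Ryr3 (r = 0.961), Atl2 (0.959), 8030462N17Rik (0.955), Prima1 (0.955) and Ypel2 (0.954). Likeness was lower in cortex, where the highest were Abca2 for Slc17a7 (r = 0.900), Tdp2 for Slc17a6 (0.918) and 1700086L19Rik for Slc17a8 (0.872), over 12 libraries.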

How the data were processed

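RNA of 12 frontal cortex and 15 striatum libraries was analysed. The deposited values are raw read counts per gene, which the authors made from reads cleaned by Trim Galore 0.5.0 and mapped by STAR 2.5.3a, on the GRCm38 genome and the gene models of GENCODE vM15. The strand setting of the counting is not given in the sources used here. The tables held 0 columns of other series, and no libraries were identical (0 pairs).

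Groups and sex came from the labels. Symbols were found for 32688 identifiers, and of 131 list genes 2 (Slc18a3 and Lhx8) were not analysed here. Genes that reached 1 CPM in all libraries compared were scaled by TMM (factors 0.980 to 1.03). The quasi-likelihood test of edgeR 4.0.16 (R 4.3.3) was run with genotype and sex as terms and Benjamini-Hochberg adjustment. Slc17a6 in striatum and between regions was taken from a fit of all genes with a count. Libraries of the 2 regions were treated as independent, and p-values measure the spread between libraries. Exact permutation tests and correlations used log2(CPM + 0.5), with a permutation test of 100000 resamples for 10 or more libraries, Python 3.11.15 and scipy 1.17.1. Alternatives were DESeq2 1.42.0, the likelihood ratio test, DESeq2 size factors, total count scaling, filterByExpr, no filter, pseudocount 0.1, other covariates and leaving out libraries. Fits were tested on simulated counts with 200 changed genes, and recovered 99.0% in frontal cortex, 98.9% in striatum and 100% between regions at a log2 change of 1, and 87.8%, 83.5% and 92.9% at 0.5, with 7, 11 and 20 false calls. The changed genes were drawn at random, so these rates do not hold for Slc17a6 and Slc17a7 in striatum. Their spread there is larger than that of most genes tested, with SE of 0.517 and 0.677 for the genotype difference.

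Genes named are the 3 transporters, up to 4 genes of highest level per list, the 3 glutamate-handling genes of largest change in each direction and the 5 genes most like each transporter. The result of 1 gene named by this rule is left out. Genes at either end of a list's correlations were chosen after their values were seen. The members and lists were chosen with earlier results of these data known.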

Additional observations from a re-analysis of the deposited data

Results flagged for a closer look

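Single libraries stood apart from the rest of their group in 3 of 32 groups of values searched, by the gap to the next library as a share of the group's range, a rule by which chance marks about 1 group in 20. List levels here are means over genes on the log2 scale, turned back to CPM, and are not shares of the sums given above. The mean level of the thalamic list was highest in Igf2enh-/- striatal library 19, at 13.1 CPM, with a gap of 0.579 of the range (n = 8). This is the library with the highest Slc17a6. The mean level of the cholinergic list was lowest in wild-type striatal library 20, at 9.96 CPM, with a gap of 0.612 (n = 7). In Igf2enh-/- striatum it was lowest in library 23, at 15.5 CPM, with a gap of 0.627 (n = 8). Libraries 20 and 23 held Slc17a7 at 47.6% and 35.5% of its cortical level and had 13.1 and 18.0 CPM of Slc17a8. None of the transporters' own levels stood apart in this way.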

How the results depend on the processing

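The differences of the 3 transporters between regions kept direction and call in all 108 alternatives run. Without 1 library they ran from -2.74 to -2.42 for Slc17a7, -1.44 to -1.16 for Slc17a6 and 2.24 to 2.35 for Slc17a8 (log2 scale). No alternative made a genotype, sex or interaction difference of a transporter pass, but signs changed. In striatum the genotype difference of Slc17a7 was 0.38 with the mean of the cortical list as a covariate and 0.025 without libraries 15 and 20, and that of Slc17a8 was 0.031 with the cortical list and 0.012 with the RNA integrity number. The cortical covariate, the omission of libraries 15 and 20, the split by trimming record and the lists without a filter were chosen after seeing the data. Without 1 library the genotype differences ran in striatum from -0.59 to 0.070 for Slc17a7, -0.094 to 0.67 for Slc17a6 and -0.13 to 0.090 for Slc17a8, and in cortex from -0.011 to 0.019 for Slc17a7. The difference of Slc17a8 by sex in cortex ran from -0.084 to 0.043, and the interaction of Slc17a7 from -0.57 to 0.0065. The causes were not tested.

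Genes called for genotype in cortex numbered 53, and 459 with no filter, 232 by likelihood ratio test, 247 by DESeq2 and 29 with the RNA integrity number, and from 8 (without library 10) to 99 (without library 1). In striatum they numbered 5, and 10 with no filter, 56 by likelihood ratio test, 112 by DESeq2, 13 with filterByExpr, 3 without sex and 54 with the cortical list, and from 3 to 8 without 1 library.

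Of 9 relations, that of Slc17a7 with medium spiny neuron genes no longer passed in wild-type (r = -0.777, adjusted permutation p = 0.0604) or in libraries 13 to 20 (-0.722). That of Slc17a6 with thalamic genes in striatum no longer passed without the 2 farthest libraries (0.359), in wild-type (0.440), in libraries 13 to 20 (0.551) or 21 to 27 (0.630), or with all 12 genes of the list (0.488), and ran from 0.441 to 0.762 without 1 library. In cortex its sign turned without the 2 farthest (0.288), in wild-type (0.113) and with all 12 genes (0.011), with -0.336 to 0.295 without 1 library. Slc17a8 with basket cell genes in cortex no longer passed in either genotype (0.296 and 0.781), and Slc17a7 with cortical genes in cortex ran from 0.431 to 0.675.

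No paired analysis was run, because the labels number the libraries and do not name the mice. Striatal libraries 13 to 24 repeat the order of genotype and sex of cortical libraries 1 to 12. Whether they came from the same mice is not stated. Depth limited Slc17a6 in striatum, with 20 counts in library 22, and Slc17a8 in cortex, with 104 to 153 counts per library.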
